A study of Mus musculus with 6 samples.

Results

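The 41 type I interferon-stimulated genes described here were chosen by symbol from a list that spans transcription factors, sensors of foreign nucleic acid and antiviral effectors. The list was chosen with earlier results of these data known, so comparisons of its members with all genes below are descriptive only. All 41 were found among the 22298 genes of the deposited tables, and all 41 passed the filter on low counts. The series measured messenger RNA of cells described as sorted from the thymus of untreated C57BL/6 mice aged 3 or 4 weeks. The labels call them double-negative thymocytes, and a protocol line speaks of stage DN2. In Toxf/f mice the gene of the DNA-binding protein Tox is flanked by recombination sites and no Cre is named. Toxf/fPdcd1Cre mice carry the same floxed Tox and a Cre transgene that takes its name from Pdcd1, which encodes the receptor PD-1; in which cells it acts is not stated in the labels. Each genotype had 3 samples, replicates 1 and 2 at 3 weeks and replicate 3 at 4 weeks. Toxf/f replicates 1 and 2 had the same values for every gene. They count here as 1 library, named the shared Toxf/f library, so that 2 Toxf/f libraries stood against 3 Toxf/fPdcd1Cre libraries. The labels do not say whether samples came from separate mice. P-values therefore cover only the spread among the libraries, which may be technical.

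The libraries held 14245492 to 16199195 estimated counts. Tox fell from 121 and 105 CPM (counts scaled to a common library size) in Toxf/f to 19.2, 16.4 and 13.8 CPM in the Toxf/fPdcd1Cre samples (edgeR, adjusted p = 6.72e-06). Cd4 stood at 718 to 982 CPM and Cd8a at 1395 to 2017 CPM over the 5 libraries, levels that go against a population free of cells carrying these coreceptors. Genes listed below for epithelial, erythroid and macrophage cells were also abundant in every library. Prss16 stood at 900 to 1268 CPM, Hbb-bs at 269 to 803 CPM and C1qb at 106 to 140 CPM. Such levels go against a population of thymocytes alone. The cells are therefore called double-negative thymocytes only as the labels have it. Toxf/fPdcd1Cre replicate 1 held 1 count of the chromosome Y gene Ddx3y, against 843 to 1354 in the other 4 libraries. The same library was intermediate for most of the interferon-stimulated genes, as given below, and any link was not tested.

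Type I interferons are cytokines that bind the receptor pair IFNAR1 and IFNAR2. The receptor's kinases JAK1 and TYK2 then activate signal transducers, STAT2 among them, which join IRF9 to form a complex that binds the interferon-stimulated response element, a DNA element with repeated GAAA blocks. The genes induced in this way sense viral nucleic acid, block steps of viral replication and feed back on the pathway itself. In the thymus, a low level of interferon signalling without infection is known, with medullary epithelium among its sources, and maturing single-positive thymocytes are known to respond to it.

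The interferon-stimulated genes were lower in Toxf/fPdcd1Cre than in Toxf/f libraries, and most of them to an intermediate degree in Toxf/fPdcd1Cre replicate 1. Of the 41 genes, 9 fell and 0 rose at an adjusted p under 0.05 (quasi-likelihood test of edgeR, Benjamini-Hochberg over 14121 genes); over all genes tested the share called lower was 1.51%. The 9 were Irf7, Zbp1, Oas2, Oas3, Oasl1, Usp18, Parp14, Trim30a and Lgals3bp. In the same direction, 40 of 41 fold changes were below 0, where 45.2% of all tested genes were, and the median log2 fold change was -0.74 against 0.03 over all genes. For 33 of the 41 every Toxf/fPdcd1Cre library lay below both Toxf/f libraries, an order found for 13.5% of all tested genes. Isg20 was the 1 member with the opposite order, which 12.6% of all genes had, and 7 members overlapped between genotypes. At an unadjusted p under 0.05, 33 members were lower, against 7.26% of all genes. These are bulk libraries, in which fewer cells of a type and less RNA per cell cannot be told apart.

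Each library had its own level. Taking each gene as (CPM + 1) over the mean of the Toxf/f libraries, the median over the 41 genes was 97.4% and 103% in the shared Toxf/f library and Toxf/f replicate 3. It was 74.6% in Toxf/fPdcd1Cre replicate 1, 54.0% in replicate 2 and 51.2% in replicate 3. The median over all tested genes stayed between 99.7% and 101% in the same libraries. Replicate 1 was the highest Toxf/fPdcd1Cre library for 34 of 41 genes (38.2% of all tested genes) and replicate 3 the lowest for 32 (33.1%). For 28 of 41 genes replicate 1 lay between the genotypes, below both Toxf/f libraries and above the other Toxf/fPdcd1Cre libraries, an order that 7.27% of all tested genes had. Between the Toxf/f libraries, replicate 3 was the higher for 26 of 41 genes (48.8% of all tested genes).

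**Figure D1:**
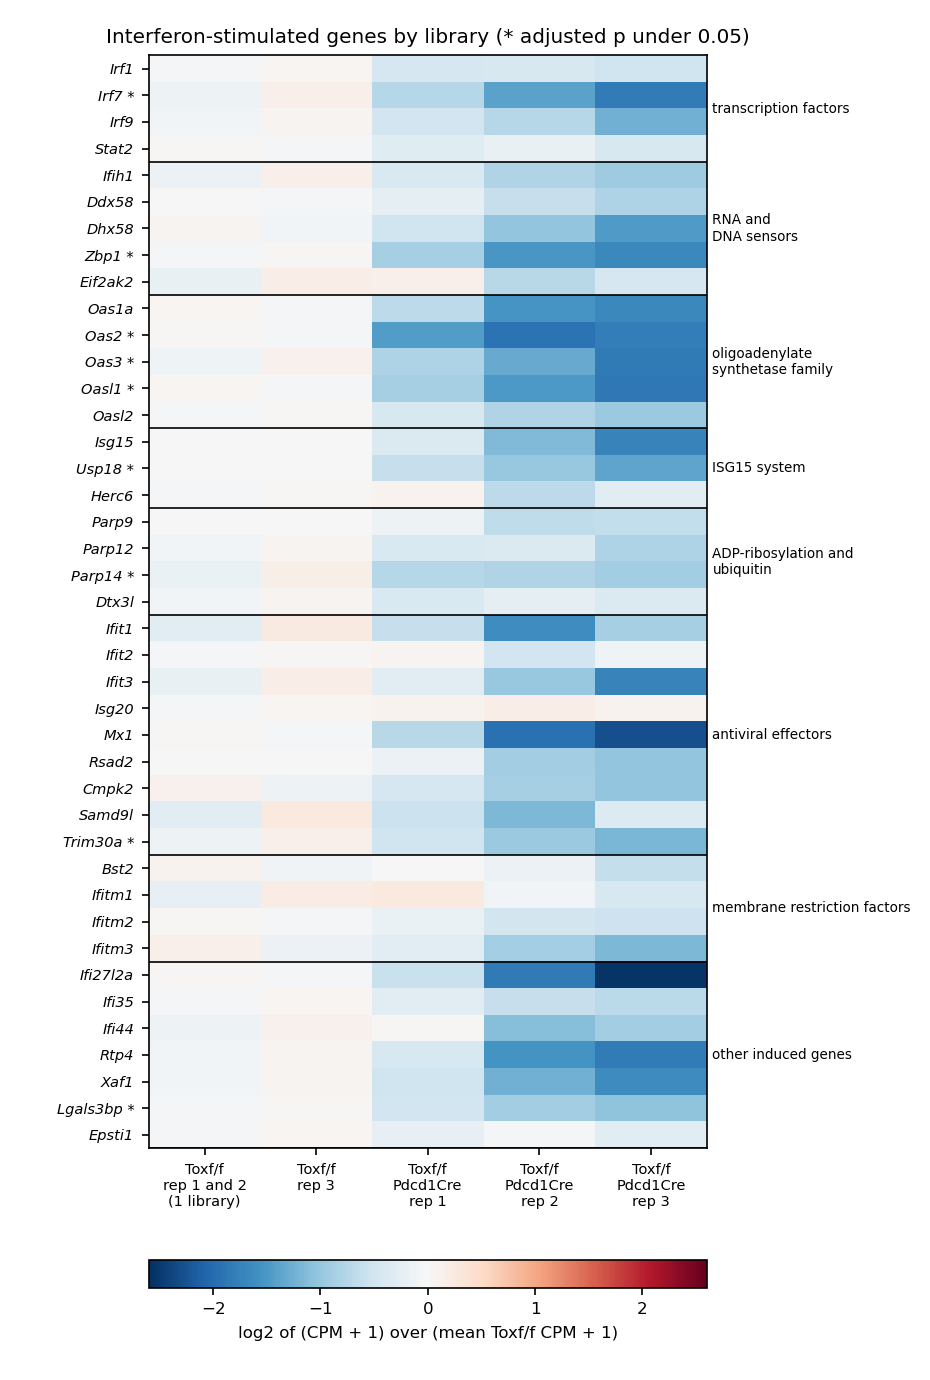
Each row is one of the 41 interferon-stimulated genes, grouped by role, and each column 1 of the 5 libraries; colour is log2 of (CPM + 1) over (mean Toxf/f CPM + 1), and asterisks mark the 9 genes past the adjusted p threshold of 0.05. The Toxf/f columns are near 0, Toxf/fPdcd1Cre replicate 1 is pale blue for most genes, and replicates 2 and 3 are darker blue.

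The difference had the same direction at both ages. The mean of the Toxf/fPdcd1Cre libraries of 3-week mice was below the shared Toxf/f library, and Toxf/fPdcd1Cre replicate 3 was below Toxf/f replicate 3, for 39 of 41 genes, where 26.3% of all tested genes did so. The exceptions were Isg20, higher at both ages, and Ifitm1. On average over the 3 libraries, 12 of the 41 genes were under 0.5 of their Toxf/f mean, as were 5.47% of all tested genes. Without Toxf/fPdcd1Cre replicate 1, 28 of 41 genes were lower and 0 higher, with 4.21% of all tested genes lower, and the median was -1.03. Without the shared Toxf/f library or without Toxf/f replicate 3, 0 of 41 passed in edgeR (27 and 23 at an unadjusted p under 0.05), with 0.323% and 0.194% of all tested genes called lower. Without Toxf/fPdcd1Cre replicate 3, 2 genes passed (Oas2 and Zbp1; 0.733% of all tested genes were lower), and without replicate 2, 6 passed (1.22% of all tested genes). The median of the 41 stayed between -0.60 and -0.82 in these 4 fits.

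Other tools and settings gave other numbers of calls. DESeq2 called 18 members lower and 2.24% of all tested genes, and limma-voom 17 and 1.98%. On log2(FPKM + 1) limma called 4 members and 1.3% of genes. With other scale factors, 9 members and 1.44% were lower under RLE and 3 members and 1.13% under upper-quartile scaling. Without a filter on low counts 22 members and 1.96% were lower, and 3 members and 1.22% with a minimum of 10 CPM in 2 libraries. With age as a covariate, 6 members and 0.821% were lower. Under a replicate block, 22 members and 2.41% were lower with the shared library as replicate 1, and 30 members and 5.45% with it as replicate 2. Counting the identical files separately gave 12 members and 2.34%. Oas2, Parp14 and Zbp1 were called in all 11 of these fits, and 0 members were higher in any.

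**Figure D2:**
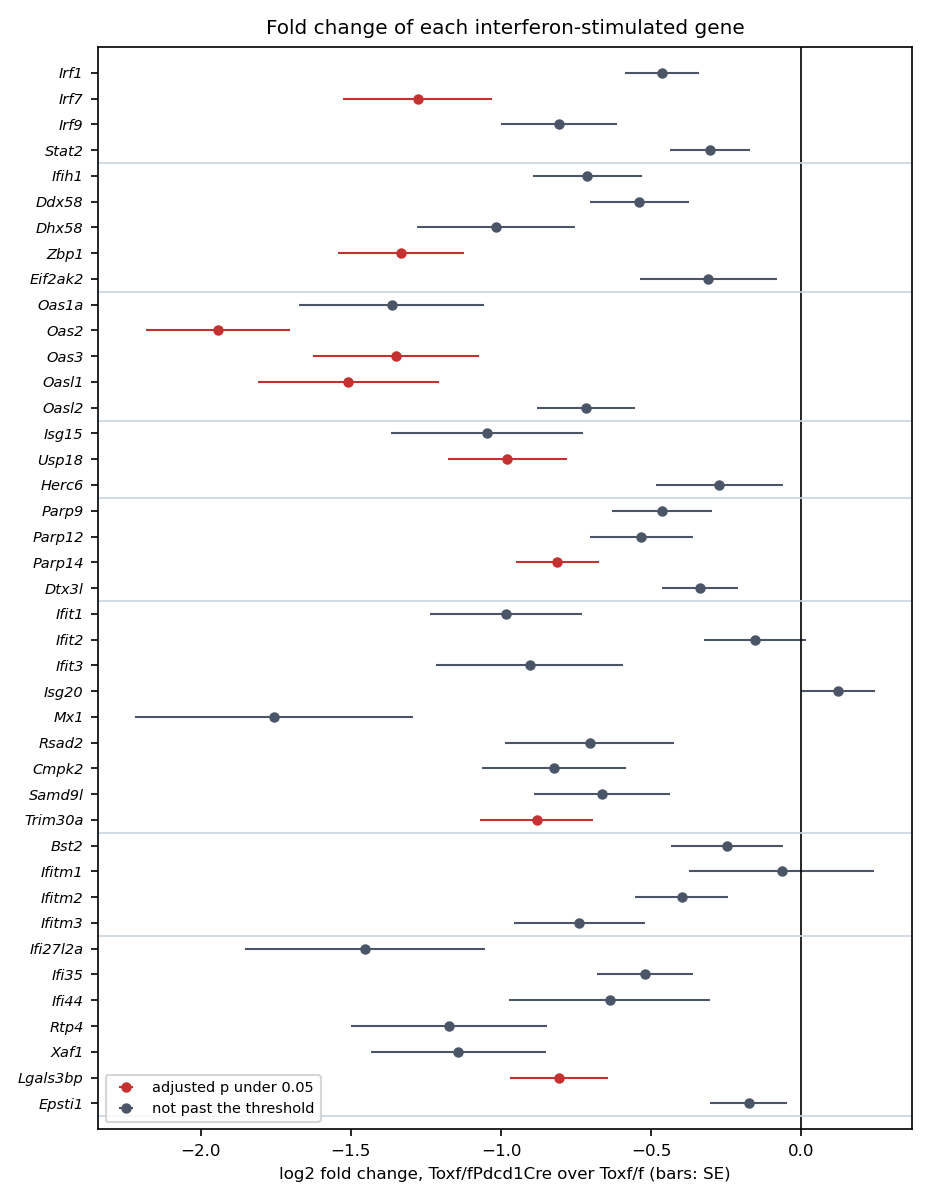
Points are the log2 fold changes of the 41 genes, Toxf/fPdcd1Cre over Toxf/f, with bars of 1 SE from edgeR, grouped by role from transcription factors at the top to other induced genes at the bottom. Red points passed the threshold; Oas2 lies farthest left at -1.94 and Isg20 alone lies right of 0.

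A motif with the repeated GAAA blocks of the response element occurs in the upstream sequence of part of these genes. Stretches that hold it are shown as letters, and binding to them was not measured. The motif searched, on both strands, was GAAA, any 2 bases and GAAA again. Matches could overlap one another. The window was the 250 bases before each RefSeq gene start (build GRCm38.p6). Of the 41 genes 32 had an entry, and 10 of these 32 (31.2%) held at least 1 match, against 3.46% of 27025 genes with an entry. The 10 were Bst2, Ifit1, Ifit3, Ifitm2, Isg15, Oas1a, Oas3, Rsad2, Stat2 and Trim30a. Dhx58, Zbp1, Oas2, Usp18, Parp9, Parp14, Mx1, Ifi27l2a and Rtp4 had no entry. Matches are in capitals, written 5′ to 3′ on the strand of the gene, where the motif on the other strand reads TTTC, any 2 bases, TTTC; Oas3 and Trim30a are the genes with a match that fell, and the other 4 were chosen for their matches after their values were known.
Oas3, chr5:120777700-120777759, minus strand: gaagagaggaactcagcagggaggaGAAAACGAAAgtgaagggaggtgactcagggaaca
Trim30a, chr7:104465195-104465254, minus strand: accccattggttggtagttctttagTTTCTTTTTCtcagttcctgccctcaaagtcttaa
Isg15, chr4:156200856-156200915, minus strand: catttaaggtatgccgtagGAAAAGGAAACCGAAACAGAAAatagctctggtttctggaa
Oas1a, chr5:120907526-120907567, minus strand: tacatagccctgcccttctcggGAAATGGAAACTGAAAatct
Ifit1, chr19:34640770-34640828, plus strand: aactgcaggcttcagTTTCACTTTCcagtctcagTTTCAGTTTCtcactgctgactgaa
Ifit3, chr19:34583365-34583424, plus strand: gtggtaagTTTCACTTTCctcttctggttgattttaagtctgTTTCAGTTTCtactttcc

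Isg15 held 3 overlapping matches, the first starting 78 bases before the gene start, and Oas1a held 2 that end 5 bases before it. The pair in Ifit1 lay 76 to 104 bases before the start and the pair in Ifit3 113 to 156 bases. The match in Oas3 lay 66 to 75 bases and that in Trim30a 27 to 36 bases before the start. The median log2 fold change was -0.89 over the 10 genes with a match and -0.59 over the 22 without, and 2 and 3 of them fell. The 3 without a match that fell were Irf7, Oasl1 and Lgals3bp; no match says only that these letters are not in this window.

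Among the 4 transcription factors, Irf7 fell, and the other 3 lay below Toxf/f in every library without passing the test. Irf7 is itself induced by interferon and drives the transcription of interferon alpha genes. Its GRCm38 position is chromosome 7, 141262706 to 141266481, minus strand, and overlaps Phrf1 on the opposite strand, whose reads cannot be told apart from its own where counting ignores strand. Irf7 had 63.8 CPM in the shared Toxf/f library and 76.8 CPM in Toxf/f replicate 3, and 41.6, 26.2 and 19.2 CPM in Toxf/fPdcd1Cre replicates 1, 2 and 3. The genotypes did not overlap, and replicate 1 was nearest to Toxf/f. The log2 fold change was -1.28 ± 0.248 (SE; edgeR, adjusted p = 0.0268). Its adjusted p was 0.176 without the shared Toxf/f library, 0.371 with Toxf/f replicate 3 left out and 0.05004 without Toxf/fPdcd1Cre replicate 3.

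Irf9, the DNA-binding part of the interferon-activated complex, had 69.1 and 77.2 CPM in Toxf/f and 51.6, 43.3 and 30.3 CPM in Toxf/fPdcd1Cre libraries, a difference of -0.81 on the log2 scale and short of the threshold (edgeR, adjusted p = 0.0678). Its position overlaps Rnf31 on the same strand, so reads of the overlap may belong to either gene. Irf1, which responds to interferon gamma as well as to type I interferon, had the highest level of the 4 per length, with a mean of 43.3 FPKM (fragments per kilobase, scaled for depth). It had 105 and 112 CPM against 79.7, 80.5 and 75.5 CPM, and replicate 1 lay between replicates 2 and 3 (log2 fold change -0.46, edgeR, adjusted p = 0.109). Stat2, a signal transducer of the complex, had the smallest difference of the group, with 80.8 and 77.1 CPM against 63.7, 69.4 and 58.8 CPM (log2 fold change -0.30, edgeR, adjusted p = 0.454).

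Of the 5 sensors of viral nucleic acid, Zbp1 fell. ZBP1 recognises left-handed Z-form nucleic acid and can start inflammatory cell death. Its gene lies on chromosome 2 from 173206612 to 173218923, on the minus strand. Zbp1 had 72.6 and 75.5 CPM in the shared Toxf/f library and Toxf/f replicate 3, and 40.2, 25.5 and 22.5 CPM in Toxf/fPdcd1Cre replicates 1, 2 and 3. The genotypes did not overlap, and the Toxf/f libraries were closer to each other than any Toxf/fPdcd1Cre library was to them. The log2 fold change was -1.33 ± 0.209 (SE; edgeR, adjusted p = 0.00811). Leaving out the shared Toxf/f library (adjusted p = 0.126) or Toxf/f replicate 3 (adjusted p = 0.187) ended the call, which held without each of the Toxf/fPdcd1Cre libraries in turn.

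The RIG-I-like receptors detect viral RNA in the cytoplasm. Dhx58, which encodes their regulator LGP2, had 20.4 and 18.6 CPM in Toxf/f and 13.4, 9.06 and 6.40 CPM in Toxf/fPdcd1Cre libraries (log2 fold change -1.02, edgeR, adjusted p = 0.0992). Ifih1, which encodes MDA5, had a log2 fold change of -0.71 and Ddx58, which encodes RIG-I, one of -0.54 (edgeR, adjusted p = 0.0922 and 0.181). All 3 had every Toxf/fPdcd1Cre library below both Toxf/f libraries, and none passed the test. Eif2ak2, which encodes the RNA-activated kinase PKR that halts translation, overlapped between genotypes: it had 29.6 and 38.8 CPM in Toxf/f and 37.4, 20.4 and 25.0 CPM in Toxf/fPdcd1Cre libraries (log2 fold change -0.31, edgeR, adjusted p = 0.756).

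The oligoadenylate synthetase family had the lowest median of the role groups, -1.36, with 3 of 5 members lower. These proteins bind double-stranded RNA, and the active ones make 2′-5′-linked oligoadenylates that switch on the RNA-degrading enzyme RNase L. All 5 genes lie on chromosome 5, Oas2, Oas3 and Oas1a in 1 stretch and Oasl2 and Oasl1 in another. Oas2 (120730333 to 120749853, minus strand) had 15.3 and 14.8 CPM in Toxf/f and 4.85, 3.26 and 3.65 CPM in Toxf/fPdcd1Cre libraries. Here replicate 1 lay with the other Toxf/fPdcd1Cre libraries, far below Toxf/f. The fold change was the largest of all 41 genes, 3.84-fold lower (log2 fold change -1.94 ± 0.241 SE, edgeR, adjusted p = 0.00229), and was not past the threshold without the shared Toxf/f library (adjusted p = 0.0556) or Toxf/f replicate 3 (adjusted p = 0.0657).

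Oasl1, whose product is known to hold back translation of Irf7 mRNA, had 15.2 and 14.2 CPM in Toxf/f and 7.58, 4.60 and 3.30 CPM in Toxf/fPdcd1Cre libraries (log2 fold change -1.51 ± 0.301 SE, edgeR, adjusted p = 0.0293). Oas3, the family's largest synthetase, had 20.4 and 23.9 CPM against 12.3, 8.30 and 5.43 CPM (log2 fold change -1.35 ± 0.276 SE, edgeR, adjusted p = 0.0329). In both genes replicate 1 was the highest Toxf/fPdcd1Cre library and still below Toxf/f. Without the shared Toxf/f library, Toxf/f replicate 3 or Toxf/fPdcd1Cre replicate 3 the adjusted p was 0.275, 0.295 and 0.0790 for Oasl1 and 0.200, 0.398 and 0.0693 for Oas3, and without Toxf/fPdcd1Cre replicate 2 it was 0.0541 for Oasl1. Oasl2 had the highest level of the family per length, with a mean of 31.2 FPKM, and 93.2 and 96.2 CPM against 70.2, 54.6 and 47.9 CPM (log2 fold change -0.72, edgeR, adjusted p = 0.0540). Oas1a stood at -1.36 on the log2 scale with the same adjusted p of 0.0540; its counts were not whole numbers, so reads may have been split between it and similar copies.

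ISG15 is a ubiquitin-like protein that is attached to other proteins after interferon. Usp18, which removes ISG15 and damps signalling at the interferon receptor, fell. It lies on chromosome 6 from 121245906 to 121270917, on the plus strand. Usp18 had 49.6 and 48.6 CPM in Toxf/f and 32.2, 24.2 and 18.4 CPM in Toxf/fPdcd1Cre libraries. The Toxf/f libraries differed by about 1 CPM, and each Toxf/fPdcd1Cre library was well below them. The log2 fold change was -0.98 ± 0.198 (SE; edgeR, adjusted p = 0.0309), with adjusted p = 0.273, 0.325 and 0.0815 without the shared Toxf/f library, Toxf/f replicate 3 or Toxf/fPdcd1Cre replicate 3. Isg15 itself had 22.6 and 22.7 CPM against 17.2, 9.64 and 6.05 CPM. Its difference of -1.05 ± 0.321 on the log2 scale was near that of Usp18 in size and larger in error, and was not past the threshold (edgeR, adjusted p = 0.184). Herc6, the mouse ligase for ISG15, overlapped between genotypes, with 24.2 and 25.5 CPM against 26.4, 15.1 and 20.4 CPM (log2 fold change -0.27, edgeR, adjusted p = 0.771).

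Parp14 fell among the genes of ADP-ribosylation and ubiquitin transfer. PARP14 adds single ADP-ribose units to proteins and takes part in interferon and interleukin signalling. The gene lies on chromosome 16 from 35832874 to 35871544, on the minus strand, close to Dtx3l and Parp9. Parp14 had 111 and 140 CPM in Toxf/f and 75.0, 72.6 and 66.9 CPM in Toxf/fPdcd1Cre libraries. The Toxf/fPdcd1Cre libraries were nearly equal, unlike in Irf7 or Zbp1, and the wider spread was in Toxf/f. The log2 fold change was -0.81 ± 0.138 (SE; edgeR, adjusted p = 0.0133), with adjusted p = 0.0552, 0.294 and 0.0602 without the shared Toxf/f library, Toxf/f replicate 3 or Toxf/fPdcd1Cre replicate 3.

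The neighbours of Parp14 did not pass. Dtx3l, a ubiquitin ligase that works as a pair with PARP9, had 127 and 138 CPM in Toxf/f against 100.3, 112 and 102 CPM (log2 fold change -0.34, edgeR, adjusted p = 0.331). Parp9 had the highest level per length, with a mean of 29.9 FPKM, and 107 and 106 CPM against 96.1, 66.8 and 68.0 CPM (log2 fold change -0.46, edgeR, adjusted p = 0.292). Parp9 and Dtx3l overlap on opposite strands and neither had whole counts throughout, so reads of the overlap may be split between them. Parp12, on chromosome 6, had a log2 fold change of -0.53 (edgeR, adjusted p = 0.217). In all 3 every Toxf/fPdcd1Cre library lay below both Toxf/f libraries.

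**Figure D3:**
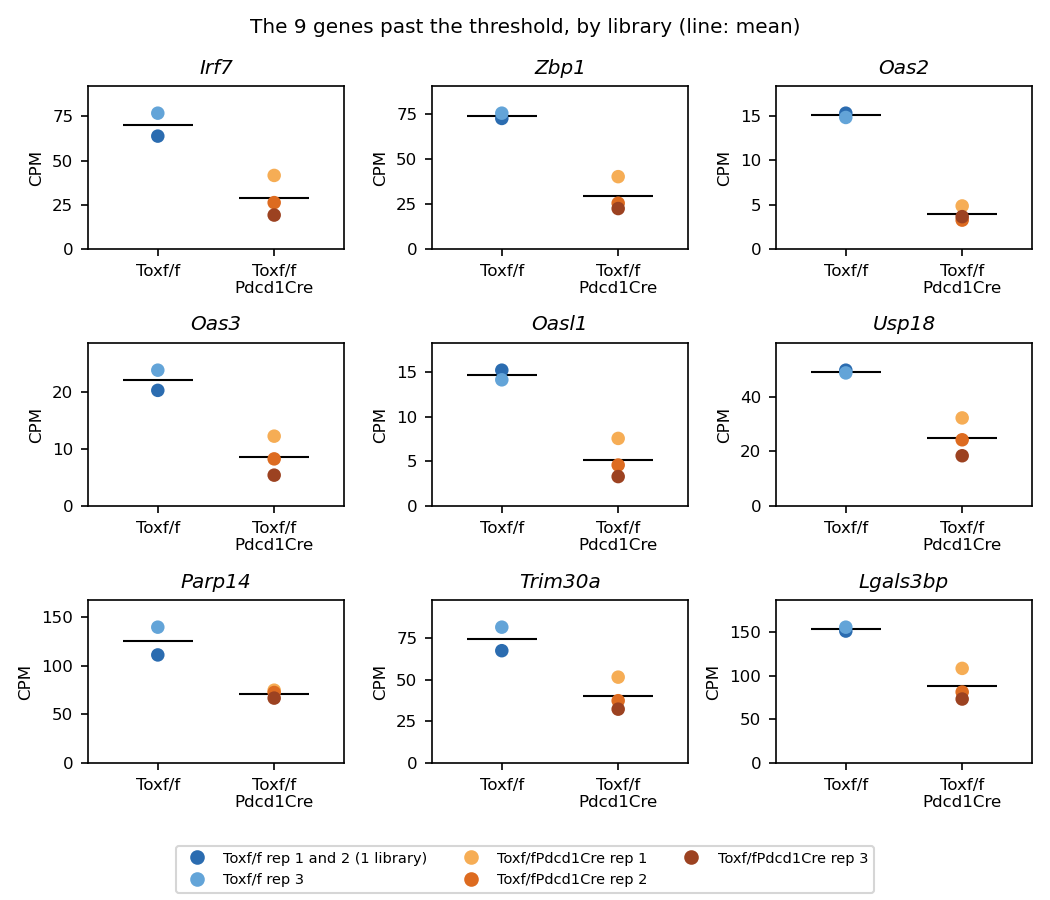
Each panel shows CPM in the 5 libraries for 1 of the 9 genes past the threshold, coloured by library, with a line at the mean of each genotype and the axis starting at 0. No panel has an overlap between genotypes, and the pale orange point, Toxf/fPdcd1Cre replicate 1, is the highest of its genotype in all 9.

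Of 9 antiviral effectors 1 fell, Trim30a, a gene of the tripartite motif family of ubiquitin ligases on chromosome 7 from 104409025 to 104465193. Trim30a had 67.3 and 81.4 CPM in Toxf/f and 51.4, 37.3 and 32.3 CPM in Toxf/fPdcd1Cre libraries. The genotypes did not overlap, and the Toxf/f libraries differed by nearly as much as replicate 1 differed from the nearer of them. The log2 fold change was -0.88 ± 0.188 (SE; edgeR, adjusted p = 0.0401). The adjusted p was 0.181 without the shared Toxf/f library, 0.498 with Toxf/f replicate 3 left out, 0.0621 without Toxf/fPdcd1Cre replicate 2 and 0.137 without replicate 3. Its counts were not whole, and it has close copies in the same stretch of chromosome 7, so its value is uncertain.

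Mx1, which encodes a dynamin-like GTPase and is known to carry an inactivating deletion in many inbred strains, had the second largest fold change of the 41 genes. It had 10.8 and 10.4 CPM in Toxf/f and 6.01, 2.04 and 1.38 CPM in Toxf/fPdcd1Cre libraries. Replicate 1 was far above replicates 2 and 3, and the difference of -1.76 ± 0.462 on the log2 scale was not past the threshold (edgeR, adjusted p = 0.107). The Ifit genes, whose products bind foreign RNA ends and block their translation, lie side by side on chromosome 19 and differed from one another. Ifit1 had 46.8 and 66.3 CPM against 37.2, 17.9 and 30.7 CPM, and Ifit3 had 44.2 and 56.9 CPM against 41.6, 25.0 and 14.4 CPM (log2 fold changes -0.98 and -0.91, edgeR, adjusted p = 0.0951 and 0.270). Ifit2 overlapped between genotypes, with 57.6 and 59.5 CPM against 61.7, 41.1 and 55.2 CPM (log2 fold change -0.15, edgeR, adjusted p = 0.866). Replicate 2 was the lowest library for Ifit1 and Ifit2, and replicate 3 for Ifit3; counts of Ifit1 and Ifit3 were not all whole.

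Isg20, an exonuclease that degrades RNA, was the most abundant effector per length, with a mean of 93.7 FPKM, and the 1 gene of the 41 with a fold change above 0. It had 90.6 and 96.7 CPM in Toxf/f and 100.1, 106 and 99.9 CPM in Toxf/fPdcd1Cre libraries. The Toxf/fPdcd1Cre libraries were all higher, by a margin that did not pass (log2 fold change 0.12 ± 0.123 SE, edgeR, adjusted p = 0.848). Rsad2, which encodes viperin, and its neighbour Cmpk2 on chromosome 12, whose products act together on nucleotides, had log2 fold changes of -0.70 and -0.82, and Samd9l, a restriction factor for poxviruses, one of -0.66. None of the 3 passed (edgeR, adjusted p = 0.383, 0.154 and 0.262), and all 3 had every Toxf/fPdcd1Cre library below both Toxf/f libraries.

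The 4 restriction factors that sit in membranes had the smallest differences, with a median of -0.32 and 0 of 4 past the test in edgeR, DESeq2 and limma-voom (2 lower at an unadjusted p under 0.05 in edgeR). At that unadjusted level 7.26% of all tested genes were lower. Ifitm3, which blocks fusion of viruses in endosomes, had the highest level per length of all 41 genes, with a mean of 109 FPKM. It had 106 and 87.2 CPM in Toxf/f and 79.0, 51.6 and 42.6 CPM in Toxf/fPdcd1Cre libraries, without overlap (log2 fold change -0.74 ± 0.218 SE, edgeR, adjusted p = 0.163). Ifitm2, which overlaps Gm45717 on the same strand, had 35.7 and 34.3 CPM against 30.9, 25.0 and 23.7 CPM (log2 fold change -0.40, edgeR, adjusted p = 0.367). Ifitm1, which acts at the cell surface, had 4.80 and 6.63 CPM against 6.97, 5.36 and 4.06 CPM, with no consistent order (log2 fold change -0.07, edgeR, adjusted p = 0.978). Bst2, which encodes tetherin and marks plasmacytoid dendritic cells in mice, had 32.3 and 28.7 CPM against 30.3, 27.3 and 19.5 CPM (log2 fold change -0.25, edgeR, adjusted p = 0.765).

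Of the remaining 7 induced genes Lgals3bp, which encodes a secreted glycoprotein, fell. It lies on chromosome 11 from 118392751 to 118402092, on the minus strand. Lgals3bp had 151 and 156 CPM in Toxf/f and 109, 81.4 and 73.4 CPM in Toxf/fPdcd1Cre libraries. The Toxf/f libraries were nearly equal, and replicate 1 was the highest of the others. The log2 fold change was -0.81 ± 0.162 (SE; edgeR, adjusted p = 0.0305), with adjusted p = 0.233 without the shared Toxf/f library, 0.340 with Toxf/f replicate 3 left out, 0.0529 without Toxf/fPdcd1Cre replicate 2 and 0.115 without replicate 3.

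Ifi27l2a, a small protein of mitochondrial and nuclear membranes, differed widely among the Toxf/fPdcd1Cre libraries. It had 76.4 and 73.5 CPM in Toxf/f and 49.7, 20.4 and 12.0 CPM in Toxf/fPdcd1Cre libraries. In replicate 3 it was at 0.164 of Toxf/f replicate 3, while replicate 1 was nearer to Toxf/f than to replicate 3, and the difference, -1.45 ± 0.400 on the log2 scale, missed the threshold (edgeR, adjusted p = 0.129). Rtp4, a chaperone of membrane receptors, had 38.8 and 43.2 CPM against 30.3, 13.3 and 10.9 CPM, and Xaf1, a pro-apoptotic binding partner of XIAP, had 18.8 and 20.9 CPM against 13.5, 7.79 and 5.71 CPM. Counts of Xaf1 were not all whole, and Rtp4 overlaps Masp1 on the opposite strand. Rtp4 and Xaf1 showed the same graded order (log2 fold changes -1.17 and -1.14, edgeR, adjusted p = 0.132 and 0.0938). Ifi35 was at -0.52 and Ifi44 at -0.64 (edgeR, adjusted p = 0.187 and 0.560), and Ifi44 overlapped between genotypes. Epsti1, with a mean of 68.9 FPKM, overlapped too, with 128 and 139 CPM against 115, 129 and 111 CPM (log2 fold change -0.17, edgeR, adjusted p = 0.754).

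Other genes of the pathway came from lists with 126 symbols in the tables. Of the 21 interferon ligand genes on them, 16 had 0 counts in every library and none passed the filter. A count of 0 allows up to 0.181 to 0.206 CPM per library, taking a floor of 3 counts that covers counting error only. Ifnb1, the gene of interferon beta, was among the 16. Ifng, the gene of interferon gamma, had 5 and 5 counts in Toxf/f and 6, 6 and 0 counts in Toxf/fPdcd1Cre libraries. No difference in ligand transcripts was detectable at this depth.

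Genes of the type I receptor and its kinases did not pass. Ifnar1 had 157 and 149 CPM in Toxf/f and 146, 165 and 159 CPM in Toxf/fPdcd1Cre libraries, and Ifnar2 had 67.7 and 64.3 CPM against 54.9, 66.9 and 59.8 CPM. Both overlapped between genotypes (log2 fold changes 0.03 and -0.12, edgeR, adjusted p = 0.970 and 0.864). The kinase genes Jak1 and Tyk2 stood at -0.06 and 0.06 (edgeR, adjusted p = 0.956 and 0.955).

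Factors upstream of interferon production did not pass. Of 16 genes of upstream sensors and adaptors 0 passed in edgeR, DESeq2 and limma-voom (4 lower at an unadjusted p under 0.05 in edgeR), with a median of -0.26. At that unadjusted level 7.26% of all tested genes were lower. For 8 of the 16 every Toxf/fPdcd1Cre library lay below both Toxf/f libraries, and for 0 above both. Of all tested genes, 13.5% and 12.6% had these orders. The lowest fold changes were those of Tlr9 and Tlr7 (log2 -1.07 and -0.95, edgeR, adjusted p = 0.192 and 0.111), and 4 of the 16 were above 0. Mavs, the adaptor of RIG-I-like receptors, had 28.4 and 31.7 CPM in Toxf/f and 28.0, 34.3 and 31.6 CPM in Toxf/fPdcd1Cre libraries (log2 fold change 0.06, edgeR, adjusted p = 0.954). Irf3, the factor that starts interferon beta transcription, was at 0.10 (edgeR, adjusted p = 0.903). The 9 other IRF genes and cofactors had 0 calls in edgeR, DESeq2 and limma-voom (4 lower at an unadjusted p under 0.05 in edgeR), and the 8 negative regulators had 0 calls in the same tools and none at an unadjusted p under 0.05, with a median of 0.05.

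A further 60 tested interferon-induced genes outside the 41 had 8 lower and 0 higher, beside the 1.51% of all tested genes, and a median of -0.52. Slfn1, a Schlafen gene of T cell quiescence, had 39.2 and 40.2 CPM in Toxf/f and 13.5, 5.23 and 3.65 CPM in Toxf/fPdcd1Cre libraries. It had the largest difference of the 8 (log2 fold change -2.42 ± 0.380 SE, edgeR, adjusted p = 0.00811), and -3.20 without Toxf/fPdcd1Cre replicate 1. Samhd1, which depletes nucleotides needed by viruses, had 130 and 137 CPM against 56.4, 40.8 and 29.9 CPM (log2 fold change -1.66 ± 0.208 SE, edgeR, adjusted p = 0.00243). Nlrc5, the activator of MHC class I genes, stood at -1.45 and Ly6a, which encodes Sca-1, at -1.23 on the log2 scale (edgeR, adjusted p = 0.00296 for both). Cxcl10, Ifi47, Trim30d and Ifi203 also fell. Leaving out Toxf/f replicate 3 ended all 8 calls, with adjusted p from 0.0943 to 0.556, and without the shared Toxf/f library Nlrc5 alone of the 8 stayed past the threshold (adjusted p = 0.0191).

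Markers of other cells moved with the genotype too, and their part in the interferon-stimulated genes was not tested. Of the 14121 tested genes, 1.51% were lower and 19 genes higher in edgeR. In DESeq2 it was 2.24% and 43 genes, and in limma-voom 1.98% and 17 genes. At an unadjusted p under 0.05 in edgeR, 7.26% of all tested genes were lower and 435 genes higher. The counts of every marker list below stand beside these shares. Of 14 markers of mature single-positive T cells, 8 fell and 0 rose, among them Ccr7, Gimap3, H2-Q7 and Klf2, and the summed level was 1452 to 1558 CPM in Toxf/f and 1009 to 1027 CPM in Toxf/fPdcd1Cre libraries. The median of this list was 57.2% of Toxf/f in Toxf/fPdcd1Cre replicate 1, between replicate 2 (54.6%) and replicate 3 (59.1%), where that of the 41 genes was highest in replicate 1. Of the 8 calls, 4 held without the shared Toxf/f library, 3 with Toxf/f replicate 3 left out, and 7 and 6 without Toxf/fPdcd1Cre replicates 2 and 3. Gimap6, the most abundant of the list by CPM, did not pass (log2 fold change -0.39, edgeR, adjusted p = 0.244). Of 12 conventional dendritic cell genes 3 fell (Ccl22, Fscn1 and Flt3) and 0 rose, with sums of 360 to 401 CPM and 143 to 214 CPM. Much of these sums came from Ccl22 (117 and 129 CPM against 32.0, 10.1 and 10.7 CPM) and Fscn1 (92.5 and 104 CPM against 53.6, 18.1 and 19.7 CPM). Sirpa, the most abundant of the list by CPM, did not pass (log2 fold change -0.29, edgeR, adjusted p = 0.501). Of the 12 fold changes 10 were below 0 and 2 above. The medians of the list, 71.9%, 63.1% and 61.0%, had replicate 1 highest. Ccl22 stood at -2.81 on the log2 scale and at -3.61 without Toxf/fPdcd1Cre replicate 1. Leaving out the shared Toxf/f library or Toxf/f replicate 3 ended all 3 dendritic cell calls (adjusted p from 0.0715 to 0.398, edgeR), and leaving out Toxf/fPdcd1Cre replicate 3 ended those of Fscn1 and Flt3 (0.103 and 0.115).

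Of 11 tested plasmacytoid dendritic cell genes, a cell type known for making type I interferon, 0 passed in edgeR and limma-voom and 1 rose in DESeq2 (1 lower and 1 higher at an unadjusted p under 0.05 in edgeR), with sums of 1815 to 1865 CPM in Toxf/f and 1614 to 2050 CPM in Toxf/fPdcd1Cre libraries. Ccr9 and Ly6d, which thymocytes also express, made up most of these sums. Siglech, a defining marker named here after its values were seen, had 5.44 and 9.64 CPM against 10.9, 4.66 and 3.37 CPM. Replicate 1 was thus the highest of all 5 libraries, and replicates 2 and 3 were below both Toxf/f libraries. For 1 gene of the list, Pacsin1, every Toxf/fPdcd1Cre library lay below both Toxf/f libraries (log2 fold change -0.82, edgeR, adjusted p = 0.173), and for 2 above both. Of all tested genes, 13.5% and 12.6% had these orders. Of the 11 fold changes 7 were below 0 and 4 above. Of 12 macrophage genes, 0 passed in edgeR and 1 fell in DESeq2 and in limma-voom (4 lower at an unadjusted p under 0.05 in edgeR), with sums of 953 to 1051 CPM and 601 to 767 CPM. Of 9 B cell genes Igkc fell, from 155 and 110 CPM to 6.83, 18.8 and 10.7 CPM, and this call held without each library in turn. The list summed to 206 to 221 CPM and 71.1 to 89.4 CPM with Igkc, and without it to 66.3 and 95.3 CPM in Toxf/f and 74.8, 70.6 and 60.5 CPM in Toxf/fPdcd1Cre libraries. Of 10 tested natural killer and innate-like genes Klrb1c and Klrk1 rose in edgeR, 4 rose in DESeq2 and 1 in limma-voom, while 5 of the 10 fold changes were below 0 (2 lower and 4 higher at an unadjusted p under 0.05). The sums were 141 to 166 CPM and 143 to 271 CPM, highest in replicate 1, and both calls ended without the shared Toxf/f library (adjusted p = 0.381 and 0.197, edgeR) or Toxf/f replicate 3 (0.307 and 0.209). Of 6 tested erythroid genes, 0 passed in the same 3 tools (3 lower at an unadjusted p under 0.05 in edgeR), with sums of 1037 to 1434 CPM and 475 to 1059 CPM. Of 10 double-positive thymocyte genes 0 passed in the same 3 tools (1 higher at an unadjusted p under 0.05 in edgeR), and Rag1 and Cd8a, the most abundant, overlapped between genotypes.

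Of 12 thymic epithelial genes 2 fell in edgeR (Krt14 and Tnfrsf11a), 3 in DESeq2 and 4 in limma-voom, with 4 lower at an unadjusted p under 0.05 in edgeR and 0 higher in all 3 tools. The list summed to 2347 to 2679 CPM in Toxf/f and 2592 to 2870 CPM in Toxf/fPdcd1Cre libraries, most of it from Prss16, Ccl25 and Krt8, whose fold changes were above 0. For 4 of the 12 every Toxf/fPdcd1Cre library lay below both Toxf/f libraries, and for 2 above both. Of all tested genes, 13.5% and 12.6% had these orders. The rest of the list overlapped between genotypes, Epcam and Krt5 among them. Aire and Fezf2, transcription factors of medullary epithelium named here after their values were seen, were among the 4. Any part of epithelial cells in the level of the 41 genes was not tested. Aire had 21.1 and 19.0 CPM in Toxf/f and 13.8, 4.28 and 3.71 CPM in Toxf/fPdcd1Cre libraries (log2 fold change -1.47, edgeR, adjusted p = 0.158). Fezf2 had 19.3 and 20.7 CPM against 11.5, 3.77 and 3.78 CPM (log2 fold change -1.65, edgeR, adjusted p = 0.0666). In both, every Toxf/fPdcd1Cre library was below Toxf/f and replicate 1 was nearest to it. The calls of Krt14 and Tnfrsf11a ended without the shared Toxf/f library (0.115 and 0.131), Toxf/f replicate 3 (0.458 and 0.333) or Toxf/fPdcd1Cre replicate 3 (0.0795 and 0.0800).

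**Figure D4:**
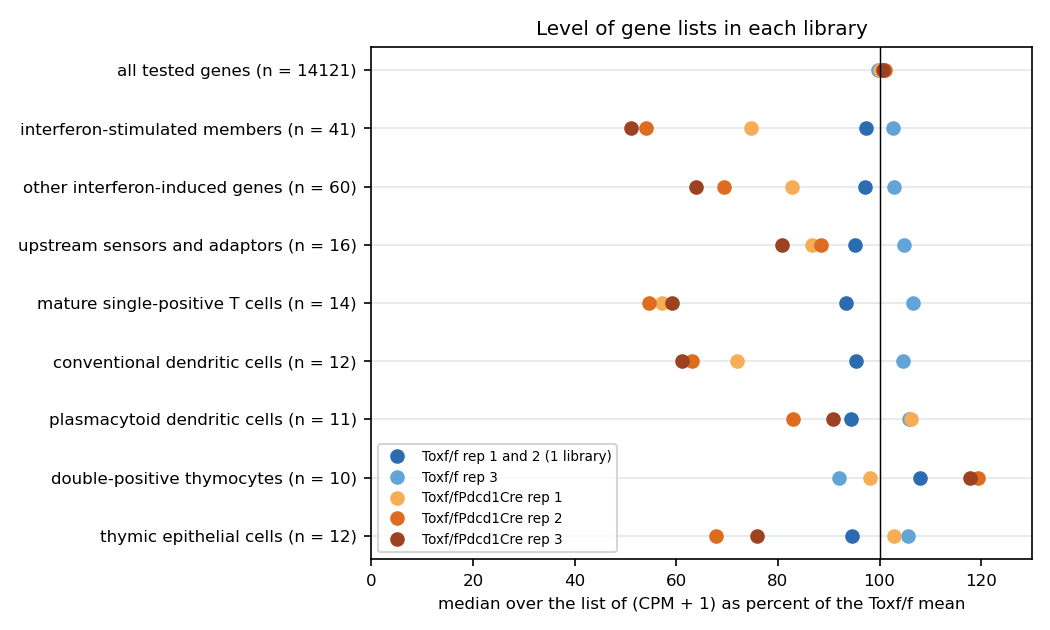
For 9 gene lists, points give the median over the list of (CPM + 1) as percent of the mean of the Toxf/f libraries, 1 point per library. The interferon-stimulated genes lie at 74.6%, 54.0% and 51.2% in Toxf/fPdcd1Cre replicates 1, 2 and 3, mature T cell genes at 54.6% to 59.1% in all 3, and all tested genes near 100%.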

How the data were processed

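RNA was extracted with Trizol, and libraries were built with a NEBNext Ultra kit, per the labels. For each sample the authors deposited estimated counts and FPKM values for 22298 genes, per the file headers; 8.81% to 9.84% of counts per library were not whole. The submitters' processing notes name fastp 0.18.0, HISAT2 and StringTie 1.3.1. Build, counting method and strand setting: not given in the sources used here.

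Counts were rounded, filtered with filterByExpr (14121 genes left), scaled by TMM and tested, 2 libraries against 3, with edgeR 4.0.16 in R 4.3.3 by its quasi-likelihood test, with Benjamini-Hochberg adjustment over all tested genes. The SE is the log2 fold change over the square root of the F statistic. The script was checked on simulated counts. Alternatives used DESeq2 1.42.0 and limma 3.58.1. The shared Toxf/f files carry a header that numbers the library 2.

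Every member is accounted for; those past the threshold and the most abundant per length of each role group are given by library. From other pathway lists, up to 4 called genes with the smallest p and well-known genes of the pathway are named, and from cell-type lists the called genes (up to 4) and the 2 most abundant, leaving out some that are not reported here; further names were added after values were seen. Members and lists were chosen with earlier results of these data known. Positions are from GENCODE M21 on GRCm38, which may differ from the authors' build, and upstream sequences from RefSeq.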

Additional observations from a re-analysis of the deposited data

Results flagged for a closer look

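Ifitm1 moved in opposite directions at the 2 ages. At 3 weeks both Toxf/fPdcd1Cre libraries (6.97 and 5.36 CPM) were above the shared Toxf/f library (4.80 CPM), while at 4 weeks Toxf/fPdcd1Cre replicate 3 (4.06 CPM) was at 0.612 of Toxf/f replicate 3 (6.63 CPM). A fit of genotype by age in edgeR gave a log2 difference of -1.07 for Ifitm1. Only Toxf/fPdcd1Cre at 3 weeks had more than 1 library in that fit. It therefore cannot decide whether the genotype difference changed with age.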

How the results depend on the processing

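The median log2 fold change of the 41 genes stayed between -1.03 and -0.60 over all alternatives, and the genes called changed in number. Beside 232 calls over all genes, 9 among the members and 9 among the other pathway genes, the counts were 417, 22 and 17 with no filter and 359, 18 and 15 with DESeq2. Over all genes 124 passed with the 10 CPM minimum, 125 with age as a covariate and 380 with the identical files counted separately, and 3 members passed with that minimum and with upper-quartile factors, 17 with limma-voom and 4 with limma on log2(FPKM + 1); separate files gave 15 pathway genes. Leaving out 1 library at a time gave 31 to 606 calls over all genes, 0 to 28 among members and 0 to 33 among pathway genes; the lowest counts came without a Toxf/f library and the highest without Toxf/fPdcd1Cre replicate 1. Fits without a Toxf/f library leave that genotype with 1 library, assumed to vary like the others. With a replicate block the counts were 435, 22 and 16 with the shared library as replicate 1, and 868, 30 and 37 as replicate 2, an alternative added after the data were seen. The labels give no shared litter or day to a number, and the deviations of same-numbered libraries correlated at r = -0.155 for number 1 and -0.134 for number 3, or at 0.0733 for number 2 if the shared library is taken as replicate 2, as its header has it. With 2 Toxf/f libraries their deviations mirror each other, so the sign rests on that choice, and with fewer than 3 pairs the numbers were not taken to pair the samples. Small log2 fold changes changed sign. Ifnar1 stood at -0.00365 with the 10 CPM minimum, -0.044 with FPKM, -0.00416 under the block with the shared library as replicate 1, and -0.00735 to 0.081 with libraries left out. Tyk2 stood at -0.00668 with FPKM and -0.11 to 0.26 with libraries left out. Mavs stood at -0.00997 under that block and -0.013 to 0.14 with libraries left out. Jak1 stood at 0.047 under the block with the library as replicate 2 and -0.14 to 0.0077 with libraries left out. Ifitm1, which the 10 CPM minimum removed, stood at 0.014 with separate files and -0.32 to 0.19 with libraries left out. The cause of these changes was not tested.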
